A study of Homo sapiens with 12 samples.

Results

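The mitosis and G2/M genes are 47 genes whose products carry a cell from the end of G2 through chromosome condensation, spindle assembly, chromosome segregation and cytokinesis. They were chosen by name for these roles, and all 47 were found by Ensembl identifier among the 57500 genes counted in each library. All 47 also passed the filter on low counts in each comparison. They were followed in HepG2, a human hepatocellular carcinoma line, in 3 groups of 4 replicates. WT were wild-type control cells. In shTST cells thiosulfate sulfurtransferase (TST), the mitochondrial enzyme also called rhodanese that turns cyanide into thiocyanate, was silenced by a short hairpin RNA. overTST cells carried a codon-optimized TST under a CMV promoter. By the methods both constructs were delivered by lentivirus and transduced cells were selected with blasticidin, steps not described for WT. All 3 groups were kept for 24 h in medium with 0.4 mM glycine, and the methods describe no vector control for the sequenced RNA.

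Entry into mitosis is driven by cyclin B and CDK1, which CDC25 phosphatases switch on. Aurora and Polo-like kinases then build the spindle, the spindle assembly checkpoint holds the anaphase-promoting complex in check until chromosomes are attached, and destruction of securin and cyclin B lets the cell divide. Transcription of these genes peaks late in the cycle. It is known to run through the cell cycle genes homology region (CHR), which binds the MuvB core with B-MYB and FOXM1 or, in resting cells, the DREAM repressor, and through CCAAT boxes bound by NF-Y. In bulk RNA, fewer cells in mitosis and less of a transcript per cell cannot be told apart.

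Promoter windows of RefSeq (GRCh38.p14, 250 bases before to 50 after the start) were at hand for 40 of the 47 members, 8 of them with several starts. FOXM1, AURKA, TPX2, BIRC5, BUB3, TTK and UBE2C had no window. On either strand the CHR letters TTTGAA occurred in 30 of 40 members (75%), against 18.2% of 27305 genes with a window. CCAAT occurred in 31 of 40 (77.5%), against 39.7% of all. At least 2 CCAAT lay in 1 window of 20 members (50%), against 12.9%, and both motifs shared a window in 23 (57.5%), against 7.26%. The palindrome TTTAAA, a related sequence, was in 15 of 40 (37.5%), against 14.5%, and 37 of 40 members (92.5%) held TTTGAA or TTTAAA, against 27.9%. The following 120 bases before the start show members that were lower in overTST (PLK1, INCENP, MKI67 and ANLN) and members that were higher in shTST (CDK1, CCNB2, CCNB1, KIF20A and PTTG1). Of the 7 members higher in shTST with a window, CDK1, CCNB2, CDCA3 and TOP2A held TTTGAA and CCNB1, KIF20A and PTTG1 did not, so both kinds are shown. Each is written 5′ to 3′ on the gene's own strand, with the 3 motifs in capitals, also where they lie on the opposite strand and read as their reverse complement. PTTG1 and CDK1 have 2 starts each, and the upstream one is shown for PTTG1 and the downstream one for CDK1.
PLK1: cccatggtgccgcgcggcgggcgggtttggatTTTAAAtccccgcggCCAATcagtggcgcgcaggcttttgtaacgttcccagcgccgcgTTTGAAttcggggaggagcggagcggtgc
INCENP: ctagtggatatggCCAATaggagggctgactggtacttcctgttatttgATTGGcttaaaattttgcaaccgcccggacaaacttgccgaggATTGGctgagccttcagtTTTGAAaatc
MKI67: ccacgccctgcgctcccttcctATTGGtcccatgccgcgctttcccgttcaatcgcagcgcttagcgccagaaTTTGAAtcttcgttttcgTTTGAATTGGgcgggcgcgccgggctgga
ANLN: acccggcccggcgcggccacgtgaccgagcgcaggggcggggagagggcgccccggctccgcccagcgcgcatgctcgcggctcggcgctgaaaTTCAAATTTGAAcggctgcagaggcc
CDK1: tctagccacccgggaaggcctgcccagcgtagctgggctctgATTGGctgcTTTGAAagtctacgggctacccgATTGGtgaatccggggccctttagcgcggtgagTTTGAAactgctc
CCNB2: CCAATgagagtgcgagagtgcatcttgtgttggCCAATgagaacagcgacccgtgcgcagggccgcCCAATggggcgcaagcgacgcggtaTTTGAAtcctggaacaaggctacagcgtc
CCNB1: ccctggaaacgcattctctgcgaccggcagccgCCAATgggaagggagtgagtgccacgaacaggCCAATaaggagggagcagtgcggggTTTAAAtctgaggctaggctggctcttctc
KIF20A: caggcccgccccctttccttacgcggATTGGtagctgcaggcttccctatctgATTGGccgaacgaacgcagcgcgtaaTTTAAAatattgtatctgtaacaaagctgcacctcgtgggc
PTTG1: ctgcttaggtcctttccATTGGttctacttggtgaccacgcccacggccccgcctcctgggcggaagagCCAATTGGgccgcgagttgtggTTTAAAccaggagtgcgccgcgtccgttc
These stretches lie at chr16:23678769-23678888 (plus strand) for PLK1, chr11:62123891-62124010 (plus) for INCENP, chr10:128126424-128126543 (minus) for MKI67, chr7:36389742-36389861 (plus) for ANLN, chr10:60778358-60778477 (plus) for CDK1, chr15:59105026-59105145 (plus) for CCNB2, chr5:69167030-69167149 (plus) for CCNB1, chr5:138178992-138179111 (plus) for KIF20A and chr5:160421735-160421854 (plus) for PTTG1. In PLK1 the TTTGAA began 29 bases before the start, behind a CCAAT 73 bases before it. MKI67 held a pair of TTTGAA at 47 and 29 bases, and in ANLN 2 of opposite strand abutted at 26 and 20 bases with no CCAAT in the stretch. CDK1 held TTTGAA at 69 and 13 bases and CCNB2 at 29 bases before the start. CCNB1, KIF20A and PTTG1 held TTTAAA in its place, at 30, 41 and 29 bases before the start, each with 2 or more CCAAT upstream. In PTTG1 a pair of CCAAT on opposite strands overlap, as do a TTTGAA and a CCAAT in MKI67. A match of letters is a description of the sequence and does not show a bound factor.

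The libraries held 22911380 to 45120508 counts, and single members had 323 counts (TTK, lowest library) to 21448 (TPX2, highest library). Every overTST library was smaller than every WT library, and mitochondrially encoded genes took 10.8 to 11.7% of its counts against 6.91 to 11.98% in WT, highest in WT replicate 4, and 6.84 to 8.65% in shTST. The part of depth in the results below was not tested, while leaving out the mitochondrial genes left 11 members higher in shTST, and 5 higher and 17 lower in overTST, than in WT. Of all genes 7.39% were then higher in shTST, and 16.0% higher and 17.9% lower in overTST. The hepatocyte markers summed to 21789 to 29011 CPM per library (CPM, counts scaled to the TMM library size). Fibroblast markers summed to 21.6 to 25.2 CPM in WT, 17.0 to 19.4 in shTST and 15.9 to 17.9 in overTST, so both lines lay below WT. Endothelial markers summed to 5.75 to 8.30 CPM in WT, 3.79 to 5.09 in shTST and 6.78 to 7.84 in overTST, and leukocyte markers, nearly all of it LYZ, to 1602 to 1679, 1332 to 1488 and 1502 to 1747 CPM, each with shTST below WT. LUM and KDR were at 0 and PTPRC at 0 to 0.0084 CPM in the group means. The part of these shifts in the results below was not tested. TST itself, the targeted gene, stood at 47.2, 47.5, 52.8 and 48.5 CPM in the 4 WT libraries, at 33.0, 33.6, 36.6 and 33.5 CPM in shTST and at 51.8, 56.0, 61.6 and 62.1 CPM in overTST. It was lower in shTST than in WT (log2 fold change −0.52, SE 0.055, adjusted p = 3.2e-06), with no overlap of the groups. In overTST it was higher (log2 fold change 0.24, SE 0.062, adjusted p = 0.00384), although 1 overTST library lay below the highest WT library, and after correction for gene length the difference was 0.097 (adjusted p = 0.201). Counts on native TST need not include the codon-optimized transgene, so the overexpression itself was not measured here.

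Per kilobase of exon, the most abundant members in WT were TPX2, which targets Aurora A to the spindle, at 131 RPKM (CPM per kilobase), then PLK1 at 86.7, CCNB1 at 77.8, CDC20 at 77.6 and AURKA at 76.4. CCNB1, CDC20 and AURKA lay within the replicate spread of each other. The scarcest were TTK at 4.10, ASPM at 3.35 and CENPE at 2.52 RPKM. TPX2 led in all 3 groups, and PLK1 ranked 2 in WT, 3 in shTST and 4 in overTST. The PLK1 ranks in both lines were near ties. In shTST PLK1 at 82.4 and AURKA at 82.1 RPKM lay within the replicate spread. The same held in overTST for PLK1 at 72.8, TOP2A at 72.7 and AURKA at 72.0 RPKM.

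More of the 47 genes were higher than lower in shTST, and more were lower than higher in overTST. In shTST 9 were higher than in WT (19.1%) and 0 lower, where 6.69% of all 14584 genes tested were higher and 9.4% lower. The other 38 did not pass the threshold of 0.05 on the adjusted p. In overTST 5 were higher and 18 lower than in WT (38.3% lower), where 15.7% and 18.2% of all 14421 genes tested were. Between the lines, 31 of 47 (66.0%) were higher in shTST than in overTST and 0 lower, against 16.9% and 16.1% of 14883 genes. In either direction 9 members were called in shTST (16.1% of all genes), 23 in overTST (33.9%) and 31 between the lines (33.0%). The 3 comparisons share their libraries and are given side by side. The changes were small. The median log2 fold change of the members was 0.090 in shTST (range −0.11 to 0.25), −0.078 in overTST (−0.54 to 0.27) and 0.17 between the lines (−0.08 to 0.46), with standard errors of 0.040 to 0.10. Medians of all genes tested lay between 0.00084 and 0.0040, and no member reached a 1.5-fold change in any comparison. The group means ran shTST, WT, overTST from high to low in 23 of 47 members. Without overlap of the libraries, 13 members lay above WT and 1 (CDC25B) below in shTST (8.37% and 10.8% of all genes), 5 and 17 in overTST (14.2% and 16.2%), and 25 and 0 between the lines (14.5% and 14.7%).

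**Figure D1:**
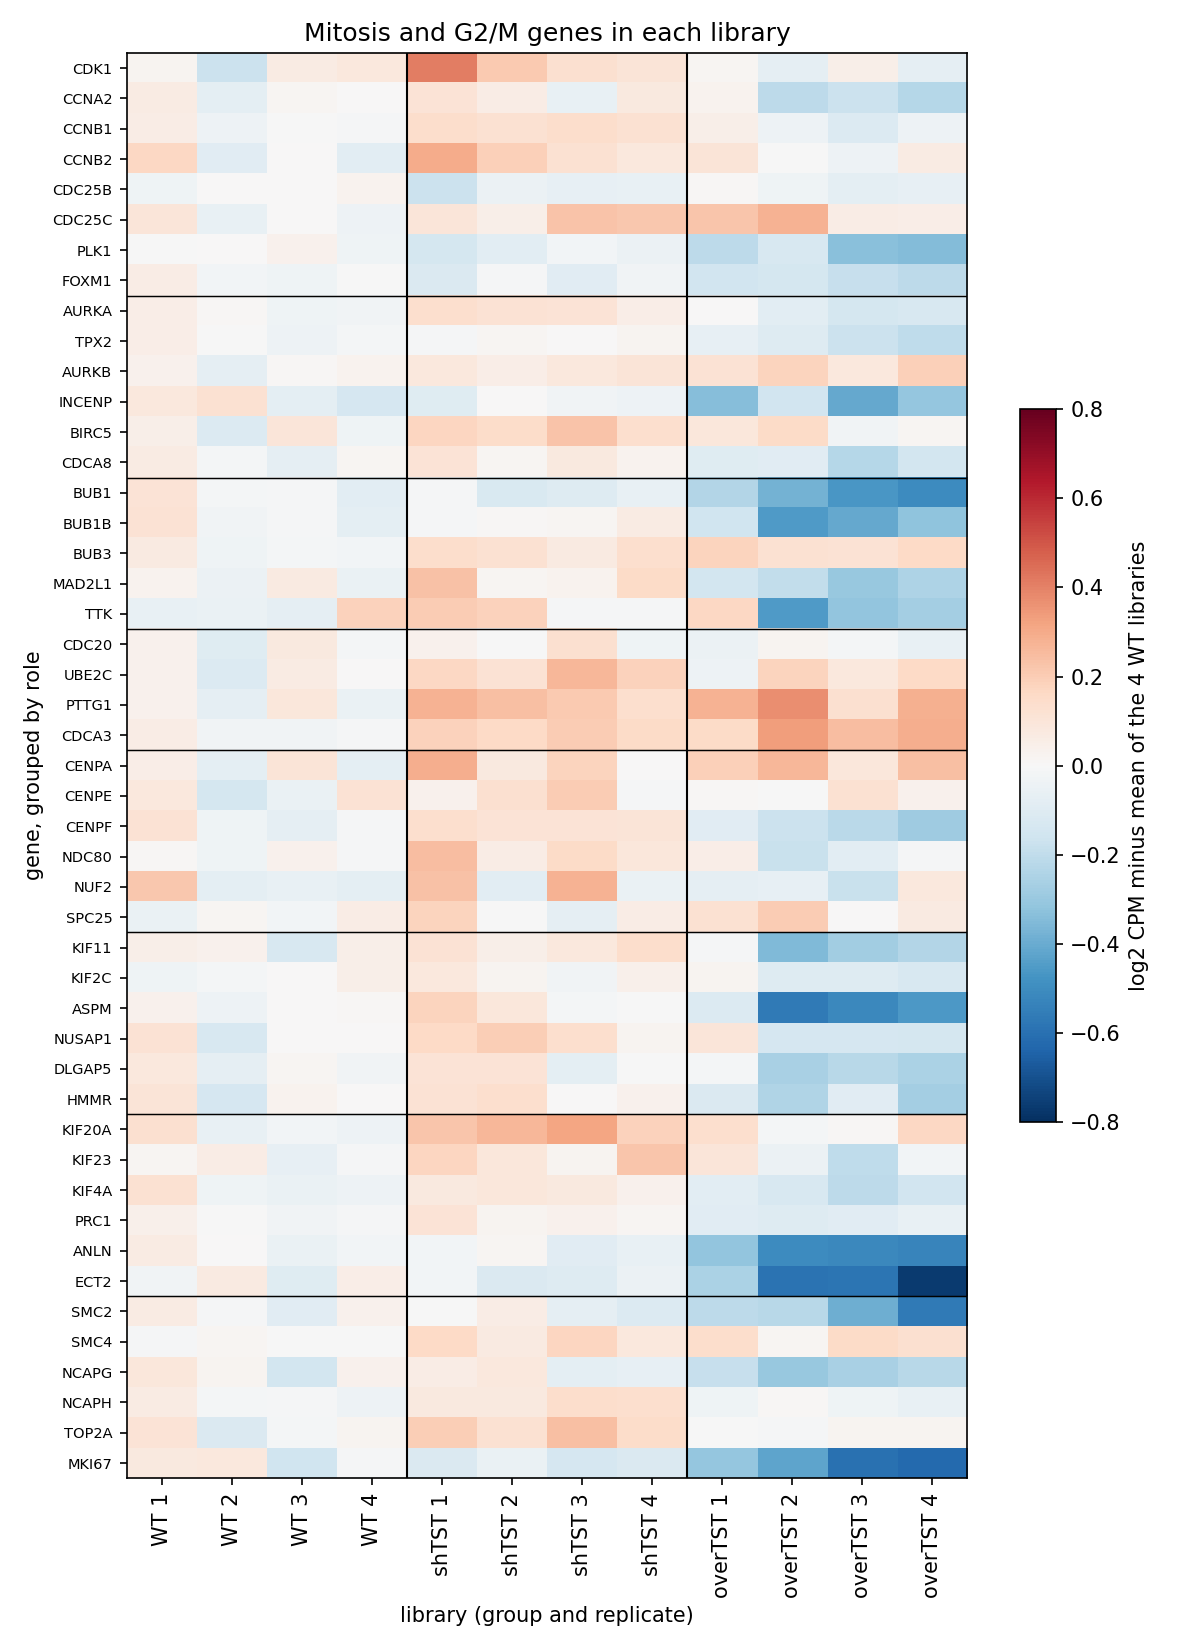
Each row is 1 of the 47 genes, grouped by role, and each column 1 of the 12 libraries. Colour gives log2 CPM minus the mean of the 4 WT libraries of that gene, red for higher and blue for lower. Blue gathers in the overTST columns, deepest in ECT2, MKI67, ASPM and ANLN, and pale red in the shTST columns.

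**Figure D2:**
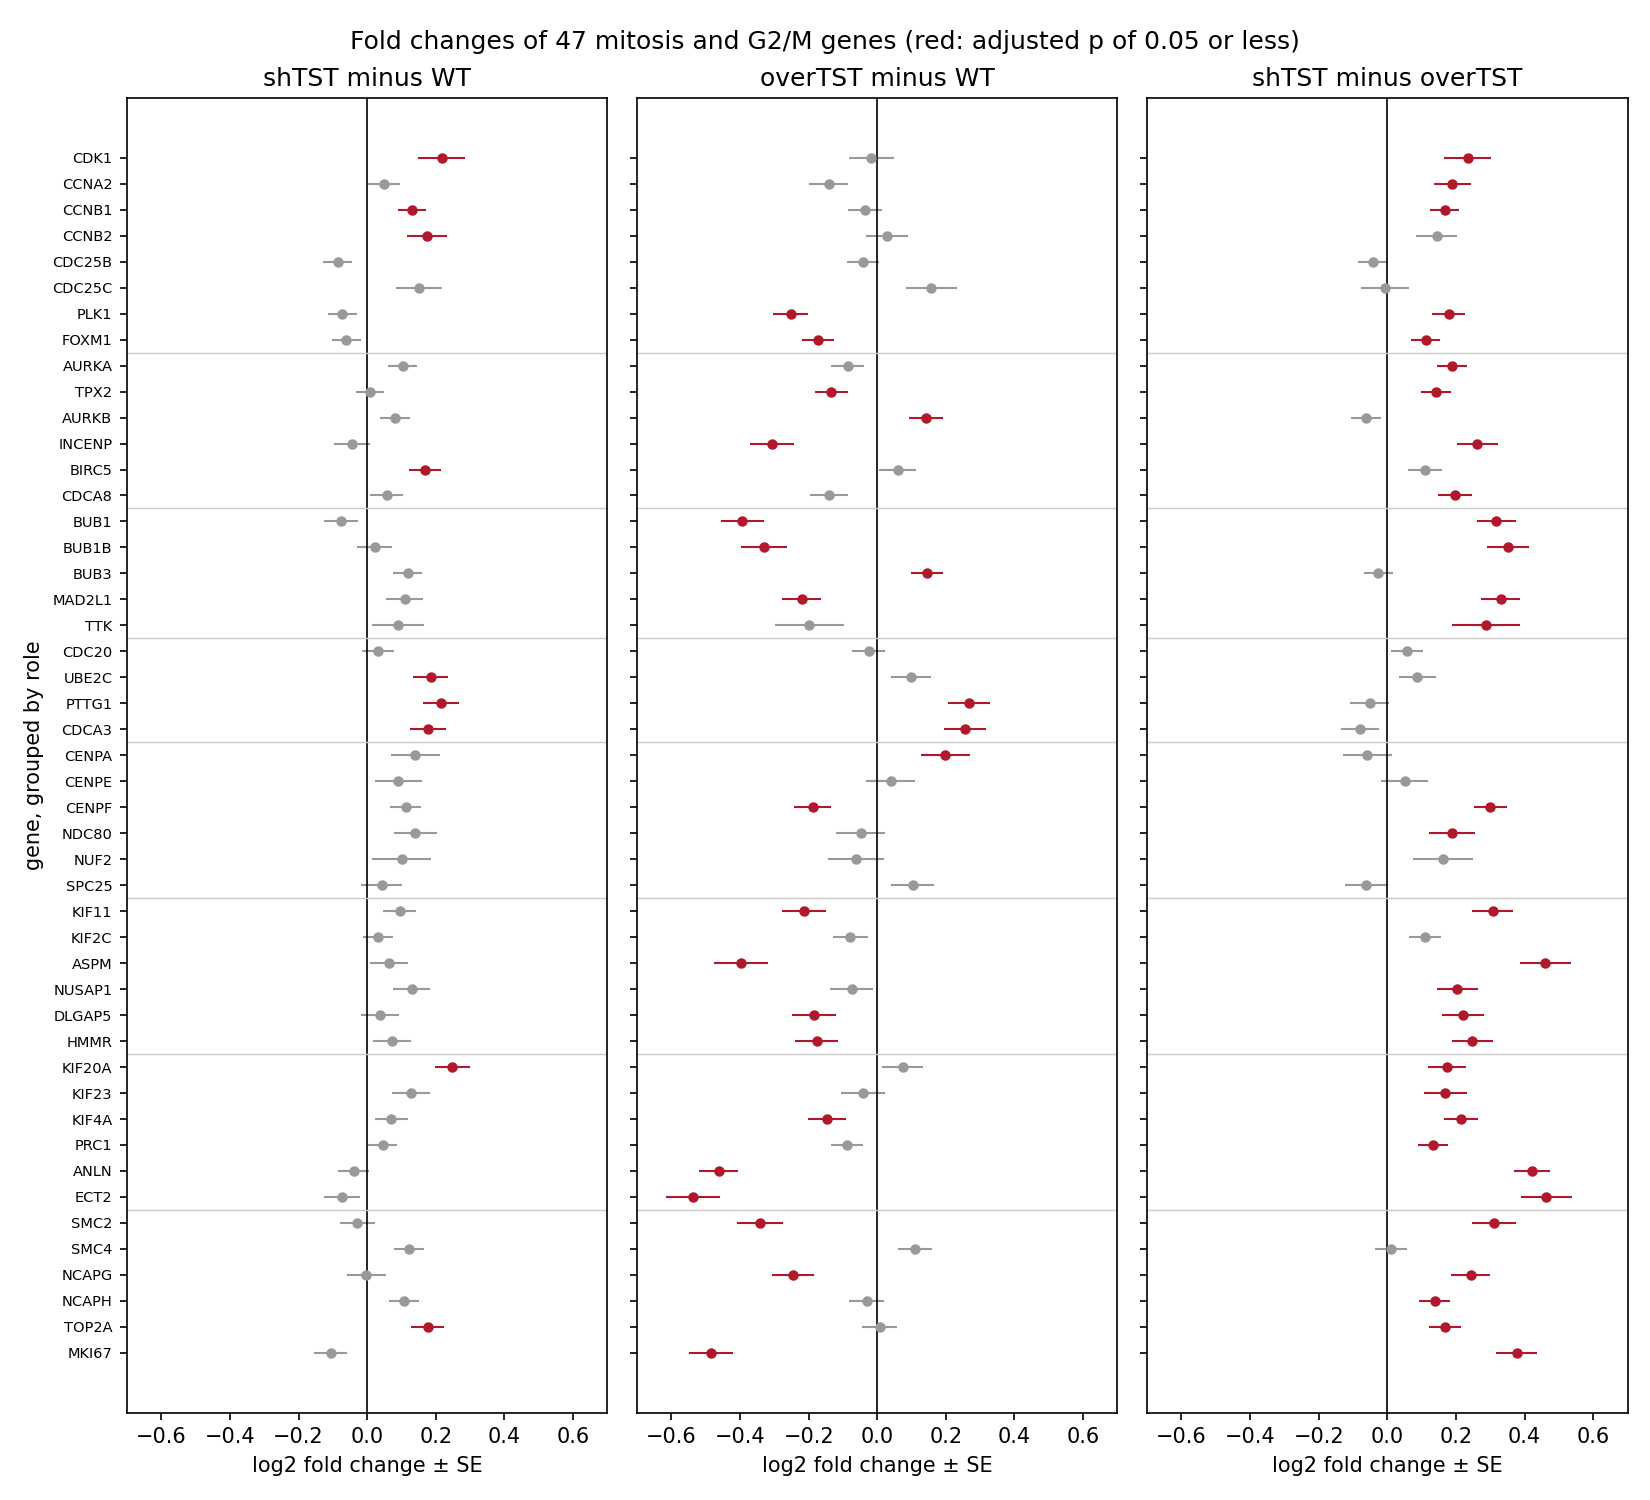
Log2 fold changes with standard errors (bars) of the 47 genes, grouped by role, in the 3 comparisons. Red marks an adjusted p of 0.05 or less in edgeR's quasi-likelihood test. In shTST minus WT the 9 called genes lie to the right of 0, in overTST minus WT 18 lie to the left and 5 to the right, and in shTST minus overTST the 31 called genes lie to the right.

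Among the genes that switch on CDK1 and G2/M transcription, CDK1, CCNB1 and CCNB2 were higher in shTST than in WT, and PLK1 and FOXM1 were lower in overTST. Of these 8 genes 5 were higher in shTST than in overTST (16.9% of all genes). The role groups here and below hold 4 to 8 genes, so their counts describe small sets. CDK1 stood at 35.9, 31.4, 37.1 and 37.6 CPM in the 4 WT libraries, at 47.1, 40.9, 38.7 and 38.1 CPM in shTST and at 35.9, 33.8, 36.6 and 33.8 CPM in overTST. The kinase was 16.2% higher in shTST than in WT (log2 fold change 0.22, SE 0.068, adjusted p = 0.0323), with all shTST libraries above all WT libraries, and in overTST it did not pass (log2 fold change −0.02, SE 0.066, adjusted p = 0.864). CCNB1 stood at 207, 193, 199 and 197 CPM in the 4 WT libraries, at 219.5, 216, 219 and 217 CPM in shTST and at 205, 194, 184 and 193 CPM in overTST. CCNB1, cyclin B1, the partner of CDK1, was 9.53% higher in shTST (log2 fold change 0.13, SE 0.040, adjusted p = 0.0273), and all 4 shTST libraries lay above WT. PLK1 stood at 411, 414, 422 and 403 CPM in the 4 WT libraries, at 375, 389, 406 and 399 CPM in shTST and at 357, 377, 327 and 324 CPM in overTST. PLK1, the Polo-like kinase that promotes CDK1 activation and centrosome maturation, fell by 16% in overTST (log2 fold change −0.25, SE 0.052, adjusted p = 0.000543) with no overlap, while in shTST the log2 fold change was −0.07 (adjusted p = 0.256). FOXM1, the transcription factor of the G2/M program, had a log2 fold change of −0.17 in overTST (adjusted p = 0.0058). Its call between the lines (adjusted p = 0.0456) was lost with RLE or upper-quartile scaling, with length correction and without the filter. The same call was lost without WT replicate 4, shTST replicate 2, 3 or 4 or overTST replicate 2, 3 or 4. CDC25B and CDC25C, phosphatases that activate CDK1, passed in none of the 3 comparisons, and CCNA2, cyclin A2, passed only between the lines. With GC correction the calls on CCNA2, CDK1 and CCNB1 between the lines were lost, that on CDK1 also without shTST replicate 1. The call on CDK1 in shTST was lost without WT replicate 1, WT replicate 2 or shTST replicate 1 (adjusted p of up to 0.144) and with correction for GC content (0.0712). That on CCNB1 was lost without WT replicate 2 or 4 or shTST replicate 1, 3 or 4 (up to 0.0722), with GC correction (0.0845) and without the filter (0.105), and that on CCNB2 with length or GC correction and without WT replicate 2, 3 or 4 or shTST replicate 1 or 2.

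**Figure D3:**
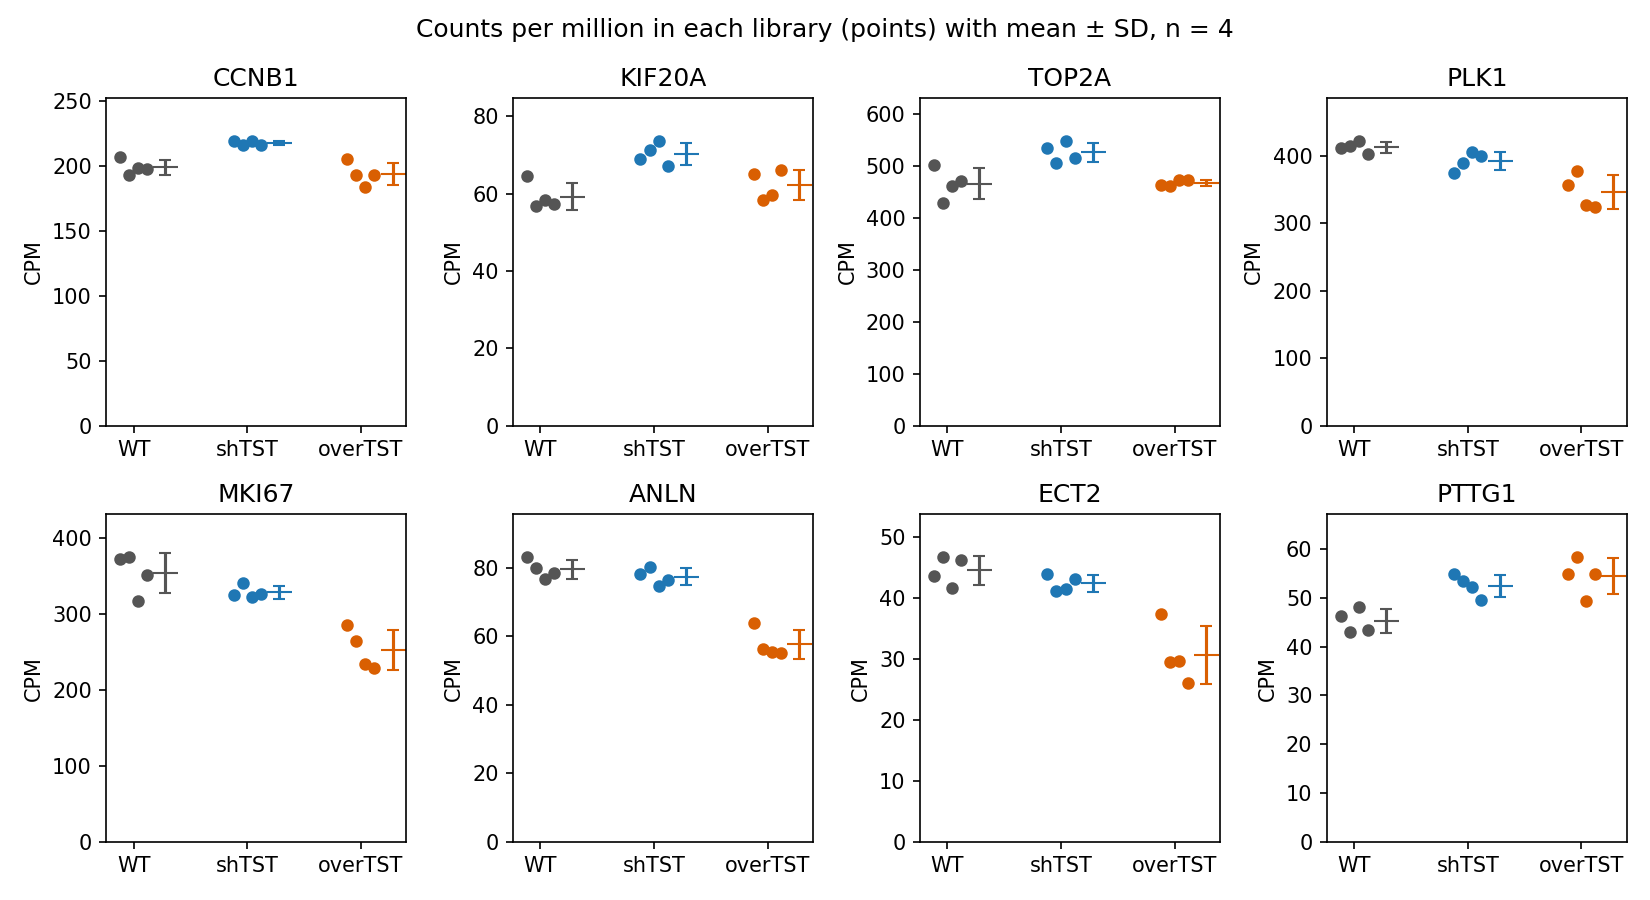
CPM of 8 members in each of the 12 libraries (points), with the mean and SD of each group (n = 4). Each axis starts at 0. CCNB1, KIF20A and TOP2A lie higher in shTST, whereas PLK1, MKI67, ANLN and ECT2 lie lower in overTST, and PTTG1 lies above WT in both lines.

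The chromosomal passenger complex, in which INCENP, survivin (BIRC5) and borealin (CDCA8) hold Aurora B at centromeres and the midzone, had calls in both directions. BIRC5 was higher in shTST, INCENP lower and AURKB higher in overTST. BIRC5 stood at 237, 212, 244 and 224 CPM in the 4 WT libraries, at 258, 254, 269 and 251 CPM in shTST and at 244, 255, 225 and 232 CPM in overTST. In shTST it rose by 12.5% (log2 fold change 0.17, SE 0.046, adjusted p = 0.0152) without overlap with WT. INCENP stood at 82.9, 85.1, 74.0 and 71.2 CPM in the 4 WT libraries, at 73.2, 78.2, 76.6 and 76.0 CPM in shTST and at 61.5, 70.1, 58.8 and 63.1 CPM in overTST. INCENP, the scaffold, was 19.1% lower in overTST (log2 fold change −0.31, SE 0.063, adjusted p = 0.000603), and every overTST library lay below every library of the other groups. AURKB, the kinase itself, was higher in overTST (log2 fold change 0.14, adjusted p = 0.0284). The AURKB call was lost with correction for length or GC content, without the filter, and without WT replicate 2 or overTST replicate 2 or 4. With 2241 exonic bases AURKB lay no higher than the median of all genes of up to 3000 bases in overTST, 0.15. TPX2 was lower in overTST (adjusted p = 0.0361), a call lost with upper-quartile scaling and without WT replicate 1 or 4 or overTST replicate 3 or 4. Between the lines AURKA, TPX2, INCENP and CDCA8 were higher in shTST, that is 4 of 6 (16.9% of all genes).

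In the spindle assembly checkpoint, the mitotic brake, 3 of 5 genes were lower in overTST (18.2% of all genes). Between the lines 4 of 5 were higher in shTST (16.9% of all genes). Between shTST and WT 0 of 5 passed (16.1% of all genes in either direction), and 1 of 5 had an unadjusted p under 0.05. The kinase BUB1 and its relative BUB1B, which encodes BubR1, fell furthest. BUB1 stood at 79.2, 72.6, 72.7 and 69.2 CPM in the 4 WT libraries, at 72.9, 67.4, 68.1 and 70.3 CPM in shTST and at 62.3, 56.4, 53.1 and 51.6 CPM in overTST. BUB1 was 23.8% lower in overTST (log2 fold change −0.39, SE 0.061, adjusted p = 3.09e-05). MAD2L1 stood at 59.5, 56.4, 61.5 and 56.3 CPM in the 4 WT libraries, at 68.8, 58.9, 59.6 and 64.8 CPM in shTST and at 52.8, 51.0, 47.3 and 49.3 CPM in overTST. MAD2L1, the Mad2 protein that binds CDC20, was 14.2% lower in overTST (log2 fold change −0.22, SE 0.056, adjusted p = 0.00335) and 25.7% higher in shTST than in overTST (log2 fold change 0.33, SE 0.056, adjusted p = 8.45e-05). With GC correction these were −0.15 (adjusted p = 0.0333) and 0.21 (adjusted p = 0.00299). BUB3, the WD-repeat partner of both BUB kinases, went the other way. BUB3 stood at 144, 134, 135 and 135 CPM in the 4 WT libraries, at 151, 149, 144 and 151 CPM in shTST and at 155, 149, 149 and 153 CPM in overTST. It was 10.5% higher in overTST (log2 fold change 0.14, SE 0.048, adjusted p = 0.0206). That call was lost without WT replicate 4 or overTST replicate 4 (adjusted p of up to 0.0582) and without the filter (0.119). In shTST the adjusted p of BUB3 was 0.0562. Under 8 of the 20 alternatives it was called higher there, among them DESeq2, the replicate block and length correction (adjusted p down to 0.00835). TTK, the checkpoint kinase Mps1, differed only between the lines (log2 fold change 0.29, adjusted p = 0.0263), a call lost with GC correction and without shTST replicate 1 or 2 or overTST replicate 2, 3 or 4.

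Of the genes of the anaphase-promoting complex and mitotic exit, 3 of 4 were higher than WT in shTST (6.69% of all genes). In overTST 2 of 4 were (15.7% of all genes). Between the lines 0 of 4 passed (33.0% of all genes in either direction), and 0 of 4 had an unadjusted p under 0.05. UBE2C, PTTG1 and CDCA3 were higher in shTST, PTTG1 and CDCA3 in overTST. PTTG1 stood at 46.4, 43.0, 48.1 and 43.5 CPM in the 4 WT libraries, at 54.8, 53.5, 52.1 and 49.5 CPM in shTST and at 54.9, 58.4, 49.4 and 55.0 CPM in overTST. PTTG1, securin, the inhibitor of separase, was 16.2% higher in shTST (log2 fold change 0.22, SE 0.053, adjusted p = 0.00711) and 20.4% higher in overTST (log2 fold change 0.27, SE 0.060, adjusted p = 0.00131), with no library of either line below the highest of WT. After correction for length its call in overTST was lost (adjusted p of up to 0.095). UBE2C stood at 59.0, 53.5, 60.3 and 57.8 CPM in the 4 WT libraries, at 64.7, 62.5, 69.2 and 65.4 CPM in shTST and at 56.1, 65.2, 61.1 and 64.3 CPM in overTST. UBE2C, the ubiquitin-conjugating enzyme of the complex, was 13.7% higher in shTST (log2 fold change 0.19, SE 0.051, adjusted p = 0.0147), a call lost without shTST replicate 3 (adjusted p = 0.0529). CDCA3, a substrate adaptor that promotes mitotic entry, stood at a log2 fold change of 0.18 in shTST (adjusted p = 0.0245) and 0.26 in overTST (adjusted p = 0.00218). In shTST its call was lost without the filter and without WT replicate 4 or shTST replicate 1 or 3. CDC20, the activator of the complex, passed in none of the comparisons.

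At kinetochores and centromeres the 6 genes had positive fold changes in shTST, as had 7421 of all 14584 genes tested. Of the 6, 0 passed (16.1% of all genes in either direction), and 2 had an unadjusted p under 0.05. CENPF, a large farnesylated kinetochore protein, was lower in overTST and CENPA, the centromeric histone H3 variant, higher. That is 1 of 6 in each direction, where 18.2% of all genes were lower and 15.7% higher. CENPF stood at 156, 141, 137 and 143 CPM in the 4 WT libraries, at 158, 155, 156 and 155 CPM in shTST and at 136, 128, 124 and 119 CPM in overTST. CENPF was 12.2% lower in overTST than in WT (log2 fold change −0.19, SE 0.054, adjusted p = 0.0085), and all overTST libraries lay below all others. Its exons span 11690 bases, and after correction for length the call was lost (adjusted p of up to 0.813), as it was without WT replicate 1 (adjusted p = 0.051). In shTST against WT CENPF had an adjusted p of 0.0866 and was called higher under 5 of the 20 alternatives, length correction among them. Between the lines it was 23.1% higher in shTST (log2 fold change 0.30, SE 0.048, adjusted p = 4.79e-05), a call kept under every alternative, although with length correction the difference was 0.15 (adjusted p = 0.0116) and with GC correction 0.19 (adjusted p = 0.00098). CENPA had a log2 fold change of 0.20 in overTST (adjusted p = 0.035), a call lost with length correction, without the filter, and without WT replicate 2 or 4 or overTST replicate 2 or 4. At 1983 bases it is in the class of up to 3000 bases, where the median of all genes was 0.15. Of the Ndc80 complex, which grips microtubules, NDC80 was higher in shTST than in overTST (adjusted p = 0.0334), a call lost with GC correction, without the filter and without shTST replicate 1 or 3 or overTST replicate 2 or 3. NUF2 and SPC25, and the motor CENPE, passed nowhere.

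Spindle motors and microtubule-binding proteins were lower in overTST in 4 of 6 (KIF11, ASPM, DLGAP5 and HMMR), against 18.2% of all genes. They were higher in shTST than in overTST in 5 of 6 (16.9% of all genes). Against WT, 0 of 6 passed in shTST (16.1% of all genes in either direction), and 1 of 6 had an unadjusted p under 0.05. ASPM stood at 37.5, 35.6, 36.6 and 36.9 CPM in the 4 WT libraries, at 41.4, 39.0, 36.3 and 36.6 CPM in shTST and at 34.0, 24.8, 25.6 and 26.7 CPM in overTST. ASPM, which focuses spindle poles, was 24% lower in overTST (log2 fold change −0.40, SE 0.078, adjusted p = 0.000391) and 37.6% higher in shTST than in overTST (log2 fold change 0.46, SE 0.075, adjusted p = 5.51e-05). The highest overTST library, replicate 1, still lay below the lowest WT library. ASPM has 10938 exonic bases, and with length correction its difference in overTST shrank to −0.24 (adjusted p = 0.0141), still called. NUSAP1 stood at 73.2, 61.8, 67.6 and 67.6 CPM in the 4 WT libraries, at 75.3, 77.4, 74.0 and 68.4 CPM in shTST and at 72.1, 61.4, 61.5 and 61.1 CPM in overTST. NUSAP1, which bundles spindle microtubules, differed between the lines (log2 fold change 0.20, SE 0.060, adjusted p = 0.0103), although overTST replicate 1 lay among the shTST libraries and with GC correction the call was lost (adjusted p = 0.0942). KIF11, the Eg5 motor that pushes the poles apart, had a log2 fold change of −0.21 in overTST (adjusted p = 0.0129). Its call was lost with GC correction and without overTST replicate 2 or 3. Those on DLGAP5 and HMMR in overTST were lost with upper-quartile scaling, with GC correction and without WT replicate 1 or overTST replicate 2 or 4, DLGAP5 also without overTST replicate 3 and HMMR without WT replicate 3 or 4. KIF2C, a microtubule depolymerase, passed nowhere.

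All 6 genes of the central spindle and cytokinesis were higher in shTST than in overTST (16.9% of all genes). Against WT, KIF20A was higher in shTST, and ANLN, ECT2 and KIF4A were lower in overTST. KIF20A stood at 64.6, 56.7, 58.4 and 57.4 CPM in the 4 WT libraries, at 69.0, 71.2, 73.7 and 67.2 CPM in shTST and at 65.1, 58.5, 59.6 and 66.2 CPM in overTST. KIF20A, the kinesin MKLP2 that brings the passenger complex to the midzone, was 18.7% higher in shTST (log2 fold change 0.25, SE 0.051, adjusted p = 0.00218), with every shTST library above every other library. ANLN stood at 83.2, 79.8, 76.7 and 78.4 CPM in the 4 WT libraries, at 78.3, 80.4, 74.7 and 76.3 CPM in shTST and at 64.0, 56.2, 55.5 and 55.2 CPM in overTST. ANLN, anillin, the scaffold of the contractile ring, was 27.4% lower in overTST (log2 fold change −0.46, SE 0.057, adjusted p = 1.69e-06), whereas in shTST the fold change was −0.04 (adjusted p = 0.608). ECT2, the exchange factor that activates RhoA at the furrow, was singled out after its values were seen, since its decrease was the largest of the 47. ECT2 stood at 43.5, 46.6, 41.6 and 46.1 CPM in the 4 WT libraries, at 43.8, 41.0, 41.4 and 43.0 CPM in shTST and at 37.2, 29.5, 29.6 and 26.1 CPM in overTST. It fell by 31.1% in overTST (log2 fold change −0.54, SE 0.079, adjusted p = 1.58e-05). KIF23 and PRC1, which organize midzone microtubules, passed between the lines only (adjusted p = 0.0384 and 0.0175). The KIF23 call was lost with length or GC correction and without shTST replicate 1, 2 or 4 or overTST replicate 2, 3 or 4, and that on PRC1 with length correction and without shTST replicate 1. The call on KIF4A in overTST was lost with upper-quartile scaling, with length or GC correction, without mitochondrial genes, and without WT replicate 1 or 4 or overTST replicate 2, 3 or 4. The call on KIF20A between the lines was lost without shTST replicate 3, overTST replicate 2 or overTST replicate 3 (adjusted p of up to 0.0662).

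Of the condensin, topoisomerase and chromosome surface genes, TOP2A was higher in shTST, and SMC2, NCAPG and MKI67 were lower in overTST. Between the lines 5 of 6 were higher in shTST (16.9% of all genes). TOP2A stood at 502, 429, 460.5 and 471 CPM in the 4 WT libraries, at 534, 506, 548 and 516 CPM in shTST and at 464, 462, 473 and 472 CPM in overTST. TOP2A, topoisomerase II alpha, which untangles sister chromatids, was 13% higher in shTST (log2 fold change 0.18, SE 0.049, adjusted p = 0.0158) and did not pass in overTST (log2 fold change 0.01, SE 0.051, adjusted p = 0.935). MKI67 stood at 373, 375, 317 and 352 CPM in the 4 WT libraries, at 326, 341, 322 and 327 CPM in shTST and at 285, 264, 234 and 229.7 CPM in overTST. MKI67, Ki-67, the proliferation marker that coats mitotic chromosomes, was 28.5% lower in overTST (log2 fold change −0.48, SE 0.064, adjusted p = 4.55e-06), and all overTST libraries lay below all others. It is the longest member, with 12807 exonic bases, and with length correction the difference was −0.30 (adjusted p = 0.000198). In shTST its log2 fold change was −0.11 (adjusted p = 0.147), which passed as lower only without WT replicate 3 (adjusted p = 0.0219). Of the ATPase subunits of condensin, SMC2 was at −0.34 in overTST (adjusted p = 0.000386) and SMC4, which did not pass, at 0.11 (adjusted p = 0.0881). NCAPH passed only between the lines. The NCAPH call was lost with GC correction and without shTST replicate 3 or 4 or overTST replicate 3 or 4. SMC4 shares 25.6% of its exonic bases with genes on the opposite strand, and NCAPG 33.1% with LCORL, so without knowledge of strand their reads cannot be told apart. FOXM1 shares 15.9% and PLK1 12.9% with genes on the opposite strand. BUB1B shares 10.2% on its own strand, with BUB1B-PAK6.

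Of the 9 genes higher in shTST, BIRC5, PTTG1 and KIF20A were called under all 20 alternatives, of the 23 called in overTST 13 were, and of the 31 called between the lines 15 were called under all 24. Calls were also gained. In shTST against WT, AURKA, BUB3, CENPF, KIF23, NUSAP1 and SMC4 passed as higher under at least 1 alternative, and MKI67 as lower. Correction for GC content, chosen after the data had been seen, left 5 genes higher in shTST (6.88% of all genes). These were BIRC5, CDCA3, KIF20A, PTTG1 and UBE2C. Between the lines it left 20 higher (14.4% of all genes), with BUB3 and SPC25 lower (14.7% of all genes). Of those 20, 18 were among the 31, and CDK1, CCNB1, NUSAP1 and TOP2A were among the calls lost. Without shTST replicate 1, 5 were higher in shTST (BIRC5, KIF20A, PTTG1, TOP2A and UBE2C), against 4.33% of all genes. The 5 genes higher in overTST became 3 without WT replicate 2 or WT replicate 4 (13.4% and 13.9% of all genes). They became 2 without overTST replicate 4, PTTG1 and CDCA3 (12.7% of all genes).

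Long transcripts were lower in overTST across the whole transcriptome, and the members followed this in part. The 47 genes ran from 1286 exonic bases (UBE2C) to 12807 (MKI67), with a median of 4314 against 4421 in all genes kept. Spearman's rho of log2 fold change with length was −0.46 over the 47 members and −0.40 over all genes in overTST, −0.27 and −0.09 in shTST, and 0.44 and 0.36 between the lines. With GC content rho was −0.09 over the members and −0.24 over all genes in shTST, 0.24 and 0.15 in overTST, and −0.44 and −0.33 between the lines. These are descriptions across genes that share libraries. Among genes of up to 3000 bases, the median in overTST was 0.15 for all 4335 genes and 0.0023 for the 12 members. Of these members 3 were higher and 0 lower, against 25.8% and 3.58% of all genes in the class. From 3000 to 5000 bases the median was 0.015 for all and −0.14 for the 20 members. Of these, 10 were lower (12.5% of all genes in the class) and 0 higher (15.8%). From 5000 to 8000 bases the median was −0.067 for all and −0.22 for the 9 members. Of these, 5 were lower (24.9% of all genes in the class) and 1 higher (10.1%). Above 8000 bases the median was −0.16 for all and −0.074 for the 6 members. CENPF, ASPM and MKI67 were lower there (41.6% of all genes in the class), and BUB3 was higher (6.75%). After correction for length 21 members were lower and 3 higher in overTST, where 14.3% and 14.2% of all genes were. CENPF and KIF4A were no longer called lower, and AURKA, CCNA2, CCNB1, CDC20 and CDCA8 now were. Of the 5 called higher, BUB3 and CDCA3 remained, AURKB, CENPA and PTTG1 were lost and SMC4 was gained. Between the lines 32 members were then higher (13.0% of all genes) and BUB3 lower (14.9% of all genes). FOXM1, KIF23, PRC1 and TOP2A were no longer called. The members' GC content had a median of 43.2% (35.3% in CENPE to 59.6% in INCENP), against 49.0% in all genes kept. Up to a GC content of 40%, 29.5% of all genes and 10 of 13 members were higher in shTST than in overTST. From 40 to 45% these were 26.2% and 10 of 13, and from 45 to 50% 19.1% and 7 of 11. Above 50% they were 8.05% and 4 of 10.

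Summed over the 47 genes, the level was 4910 to 5212 CPM in the WT libraries, 5155 to 5242 in shTST and 4488 to 4831 in overTST. WT replicate 1 reached the shTST range, with 40 of 47 members above the WT mean, against 12 to 19 in the other WT libraries. In the same way overTST replicate 1 was the highest overTST library, with 22 members above the WT mean against 12 to 15. The correlation of a member's deviations from its group means with the mean deviation of the other members, over the 12 libraries, had a median of 0.50 (−0.29 in UBE2C to 0.92 in CCNB1). It was over 0.5 in 24 of 47 members (51.1%) and in 11.6% of 14836 other genes, a description of libraries that share depth and scaling.

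**Figure D4:**
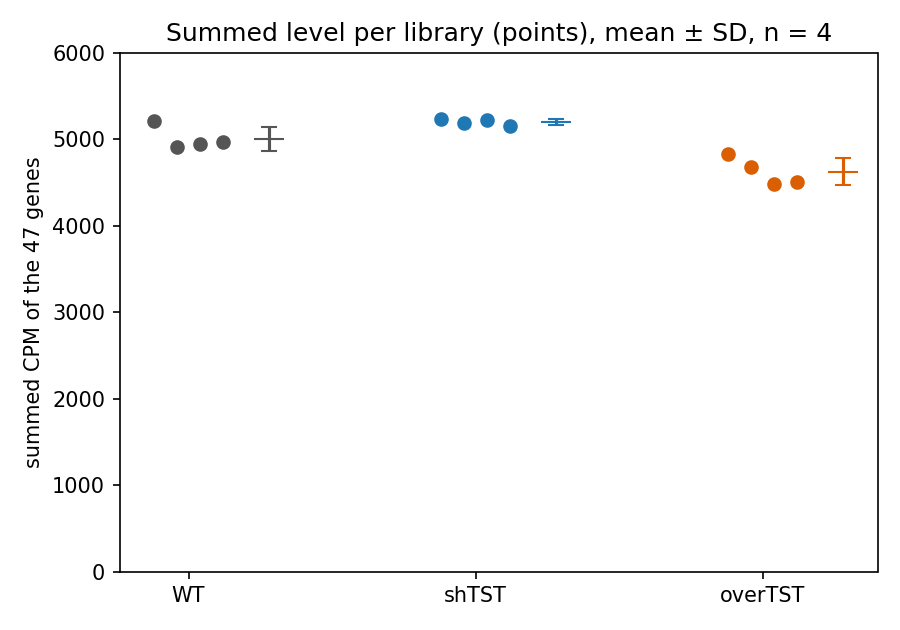
Summed CPM of the 47 genes in each library (points), with the mean and SD of each group (n = 4). The axis starts at 0. The shTST libraries lie close together between 5155 and 5242, and the 4 overTST libraries, 4488 to 4831, lie below the WT libraries.

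A further 103 mitotic genes outside the 47 were all tested. In shTST 19 were higher (18.4%, against 6.69% of all genes) and 0 lower (9.4% of all genes). In overTST 18 were higher (17.5%), about the 15.7% of all genes, and 30 lower (29.1%, against 18.2%). Between the lines 44 were higher in shTST (42.7%, against 16.9%) and 10 lower (9.71%, against 16.1%). SKA2, of the complex that couples kinetochores to microtubules, had a log2 fold change of 0.32 in shTST (adjusted p = 0.000107). ARPP19, an inhibitor of the phosphatase that opposes CDK1, stood at 0.28 (adjusted p = 0.000196), and LMNB1, lamin B1, at 0.26 (adjusted p = 0.000958). In overTST the smallest p-values went to ANAPC1, the largest subunit of the anaphase-promoting complex, at −0.70 (adjusted p = 2.88e-08), KNL1, the kinetochore scaffold, at −0.67 (adjusted p = 4.08e-06), and the cohesin subunit SMC1A at −0.40 (adjusted p = 8.82e-06). Their exonic lengths of 13327, 10250 and 10484 bases put all 3 above 8000 bases, where the median of all genes was −0.16 in overTST.

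Of 19 tested genes of MuvB, DREAM and the CDK inhibitors, which act on the promoters above or on CDKs, 6 were higher (31.6%, against 6.69% of all genes) and 1 lower (5.26%, against 9.4%) in shTST. In overTST 2 were higher (10.5%) and 3 lower (15.8%), which is not above the 15.7% and 18.2% of all genes. CDKN1A, the CDK inhibitor p21, was higher in both lines. CDKN1A stood at 56.8, 68.9, 71.3 and 67.0 CPM in the 4 WT libraries, at 81.8, 83.0, 83.9 and 78.0 CPM in shTST and at 86.3, 83.5, 88.6 and 84.8 CPM in overTST. Its log2 fold change was 0.31 in shTST (SE 0.057, adjusted p = 0.000951) and 0.38 in overTST (SE 0.060, adjusted p = 3.42e-05). LIN52, a MuvB subunit, was higher in shTST at 0.34 (adjusted p = 0.00111), and RB1 lower in overTST at −0.42 (adjusted p = 3.57e-05). RB1 has 6169 exonic bases, and from 5000 to 8000 bases the median of all genes was −0.067 in overTST, with 24.9% lower. Of 48 genes of G1/S and DNA replication, the phase before, 25 were higher (52.1%) and 1 lower (2.08%) in shTST. In overTST 7 were higher (14.6%) and 4 lower (8.33%), again not above the shares of all genes. UHRF1, which keeps DNA methylation through replication, stood at 0.47 in shTST (adjusted p = 2.89e-05) and PCNA, the sliding clamp, at 0.32 (adjusted p = 0.000106). In overTST ORC6, of the origin recognition complex, stood at 0.41 (adjusted p = 0.00021) and CDK6 at −0.40 (adjusted p = 1.38e-05). CDK6 has 12260 exonic bases, and above 8000 bases the median of all genes was −0.16 in overTST, with 41.6% lower.

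By promoter, TTTGAA was present in 15 of 16 members with a window that were lower in overTST (93.8%), in 22 of 27 that were higher in shTST than in overTST (81.5%) and in 8 of 13 that were not called between the lines (61.5%). It was in 4 of 7 members higher in shTST than in WT (57.1%). TTTAAA was in 3 of the 16 lower in overTST (18.8%) and in 5 of the 7 higher in shTST (71.4%), and CCAAT in 12 of 16 (75%) and 7 of 7 (100%). Over all 40 members with a window TTTGAA was in 30 (75%), TTTAAA in 15 (37.5%) and CCAAT in 31 (77.5%). Of all genes with a window 18.2%, 14.5% and 39.7% held them. The shares by call describe small sets.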

How the data were processed

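RNA of 12 HepG2 libraries was sequenced in 3 groups of 4 (WT, shTST, overTST). The authors deposited raw, unnormalized read counts for each Ensembl gene, as whole numbers, and its exonic length. The submitters' processing notes name Trimmomatic 0.36, STAR 2.5.2b, featureCounts, Subread 1.5.2 and GRCh38. The annotation and the use of strand are not given in the sources used here. Groups came from the labels, the design text calls replicates independent, and the medium from the methods.

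Each line was compared with WT on its 8 libraries and the lines with each other in a fit of all 12, by edgeR 4.0.16 (filterByExpr, TMM, quasi-likelihood test, Benjamini-Hochberg over all genes tested, threshold 0.05). SE is the log2 fold change over the square root of F. CPM used TMM sizes of all 12 libraries, log2 CPM a prior count of 2, and RPKM is CPM per kilobase of exon. Alternatives were DESeq2 1.42.0, limma-voom 3.58.1, RLE and upper-quartile scaling, no filter, 1 CPM in 4 libraries, other sample sets, a replicate block, lowess corrections (span 0.3) for length and GC (longest GENCODE 29 transcript), omission of mitochondrial genes and leaving out each library. Procedures were tested on simulated data.

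The 47 members, all lists and tests were chosen with earlier results of these data known. With values in all libraries were named, for each role group and comparison, the gene of lowest p, and CDK1, CCNB1, TOP2A, MKI67, CENPF and ASPM. Of the other lists, the 3 (mitotic) or 2 genes with the smallest p in each comparison with WT were named. Replicates differed by 6.30 to 38.9 chi-square units per gene in WT, most between WT replicate 4 and WT replicates 1 and 3, by 4.69 to 8.90 in shTST and by 3.78 to 10.5 in overTST, so none was counted as a duplicate.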

Additional observations from a re-analysis of the deposited data

Results flagged for a closer look

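In 54 groups of 4 libraries (18 genes in 3 groups), 3 values in 2 libraries stood apart from the rest of their group by Dixon's criterion, close to the 1 in 20 groups that chance gives. BUB3 in WT replicate 1 was at 144 CPM, and the other WT libraries at 134 to 135. NUSAP1 in overTST replicate 1 was at 72.1 CPM, against 61.1 to 61.5 in the other overTST libraries. ANLN in overTST replicate 1 was at 64.0 CPM, against 55.2 to 56.2. Without overTST replicate 1, 22 members were lower in overTST than in WT (19.3% of all genes), and without WT replicate 1, 13 were (15.8%). The cause was not tested.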

How the results depend on the processing

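All called members kept their direction under every alternative. In shTST against WT, 5 members were higher with GC correction (6.88% of all genes). When 1 library was left out 5 to 11 were higher (4.33 to 6.86%). The number lower was 0 to 1, against 4.94 to 11.9% of all genes over the alternatives. In overTST against WT, 2 were higher without the filter (6.11% of all genes) and 3 with length correction (14.2%). With 1 library left out 2 to 5 were higher (12.1 to 16.6% of all genes). The members' median log2 fold change in overTST was −0.13 with length correction, with and without the block. Between the lines, GC correction gave 20 higher and 2 lower (14.4% and 14.7% of all genes) and a median of 0.11. Length correction gave 1 lower, with and without the block (16.1% and 14.9% of all genes). TST in overTST was at 0.097 (adjusted p = 0.201) with length correction and at 0.094 (adjusted p = 0.159) with length correction and block. Each correction removes a trend over all genes from every library, and beyond that the cause was not tested. With upper-quartile scaling, 1284 of all genes were higher and 1151 lower in shTST, against 975 and 1371.

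The labels do not say whether equal replicate numbers pair the samples, and the correlations between libraries do not settle it. Same-numbered libraries of different groups had correlations of −0.053 to 0.080 (median 0.020, n = 12), others −0.11 to 0.078 (median −0.0038, n = 36). Of 12 libraries 5 correlated best with their own number. The block raised calls over all genes from 2346 to 2980 in shTST, 4893 to 5166 in overTST and 4907 to 5232 between the lines. With the replicate block 13 members were higher and 0 lower in shTST (8.55% and 11.9% of all genes). In overTST 5 were higher and 20 lower (16.7% and 19.1% of all genes). Between the lines 32 were higher and 0 lower (18.0% and 17.2% of all genes). Standard errors of 0.040 to 0.10 on the log2 scale limit what could be detected.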
